A study of Drosophila melanogaster with 16 samples.

Results

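The cytoplasm RNA of OSS cells electroporated with siRNA against piwi (siPIWI) was compared with that of OSS cells given siRNA against GFP (siGFP, the negative control). OSS is an established line of cultured ovarian follicle cells of Drosophila melanogaster. The comparison held 4 of the 16 libraries of the series, chosen by their labelled fraction and siRNA: siPIWI libraries OSS_146 and OSS_147 and siGFP libraries OSS_146 and OSS_147. In every group a 10 cm plate of cells received 500 pmol of siRNA and was cultured for 6 days, and strand-specific libraries were made from total RNA. The other 12 libraries hold the cytoplasm of cells given siRNA to the Paf1 gene (siPAF1) or to both genes (the double knockdown), and the RNA of pellets that the labels call NUN for all 4 siRNA groups. The series as a whole asks how Paf1 bears on silencing by Piwi. The labels do not say whether OSS_146 and OSS_147 were cultures of their own, and a p-value here reflects only how far these libraries spread. An siRNA lowers a transcript without removing the gene, and a cultured somatic line lacks the germ cells and the tissue of an ovary.

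Piwi is an Argonaute protein that binds small RNAs of the piRNA class. In ovarian follicle cells a linear form of the pathway works without the amplification cycle of germ cells: long precursor transcripts are cut into piRNAs, which Piwi carries into the nucleus. There the complex finds nascent transposon transcripts and directs silent chromatin to them, so that genes near a transposon insertion can also be silenced. The cytoplasm comparison is meant to look at mature mRNA rather than at nascent transcripts. However, siPIWI library OSS_146 held a larger share of RNA typical of the NUN pellet, as given below. Transposon families were not analysed here.

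Levels are CPM, the unique own-strand counts on a gene's coding sequence (CDS) relative to the library size, scaled by TMM. Differences are log2 differences of siPIWI from siGFP, from an edgeR fit of all 8 cytoplasm libraries. Their standard error (SE) was derived from the difference and its F statistic. The siGFP libraries held 1131958 and 859335 CDS counts and the siPIWI libraries 1153214 (library OSS_146) and 663876 (library OSS_147). The scaling factors were 0.649 and 0.901 for siGFP and 1.35 and 1.03 for siPIWI. The number of genes with a count was 7416 and 7593 with siGFP and 8223 and 7677 with siPIWI. Positions are given as in the files, for a genome build not given in the sources used here. In bulk libraries of this kind fewer cells of a type and less RNA per cell cannot be told apart.

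Of 39 follicle cell identity genes 29 and 30 had a count in the siGFP libraries and 36 and 30 in the siPIWI libraries, and en, os and slbo had 0 in all 4. The adhesion gene Fas3 had 1 and 2 siGFP counts and 24 and 1 siPIWI counts. The follicle cell transcription factor gene traffic jam (tj) had 152 and 99 counts in the siGFP libraries, against 393 and 45 in the siPIWI libraries. Among genes that define other tissues, the germ cell genes bam, osk and zpg, the neuron gene elav and the yolk protein gene Yp1 of the fat body had 0 counts in all 4 libraries, and the muscle myosin gene Mhc had 0 to 2. Summed over 15 germline markers the level was 153 and 173 CPM with siGFP against 267 and 214 CPM with siPIWI. Over 14 muscle markers it was 1450 and 1400 CPM against 567 and 767 CPM, most of it from the myosin light chain gene Mlc2. The 12 hemocyte markers summed to 42.4 and 33.8 CPM against 42.2 and 28 CPM, the 11 neuron markers to 112 and 62.3 CPM against 56.5 and 45.6 CPM, and the 9 fat body markers to at most 8.83 CPM. Most of the neuron sum came from the choline acetyltransferase gene Cha, at 108 CPM in siGFP library OSS_146, so not all markers of other tissues were low. The part of these levels in the results was not tested.

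The siPIWI libraries differed from each other in how much RNA typical of the NUN pellet they held. A set of 1871 genes was taken from the siPAF1 libraries, which are in neither compared group, as those higher in NUN than in cytoplasm by a log2 difference of more than 3. These NUN-enriched genes took 1.30% and 2.01% of CDS counts in the siGFP libraries, 6.94% in siPIWI library OSS_146 and 2.02% in siPIWI library OSS_147. Library OSS_147 thus stood at the level of the higher siGFP library, and library OSS_146 stood above all other cytoplasm libraries. The siPAF1 libraries held 2.12% and 2.26%, the double knockdown 4.70% (library OSS_146) and 1.68% (library OSS_147), and the NUN libraries 55.8% to 61.4%. The cytosolic ribosomal protein genes, 93 genes whose mRNAs dominate these cytoplasm libraries, took 61.4% and 58.6% of counts with siGFP, 49.8% in siPIWI library OSS_146 and 56.6% in siPIWI library OSS_147. Both siPIWI shares lay below both siGFP shares, with library OSS_146 farther below. Because the siPIWI libraries differ in this way, levels of genes and medians of groups are given below for each of them.

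**Figure D1:**
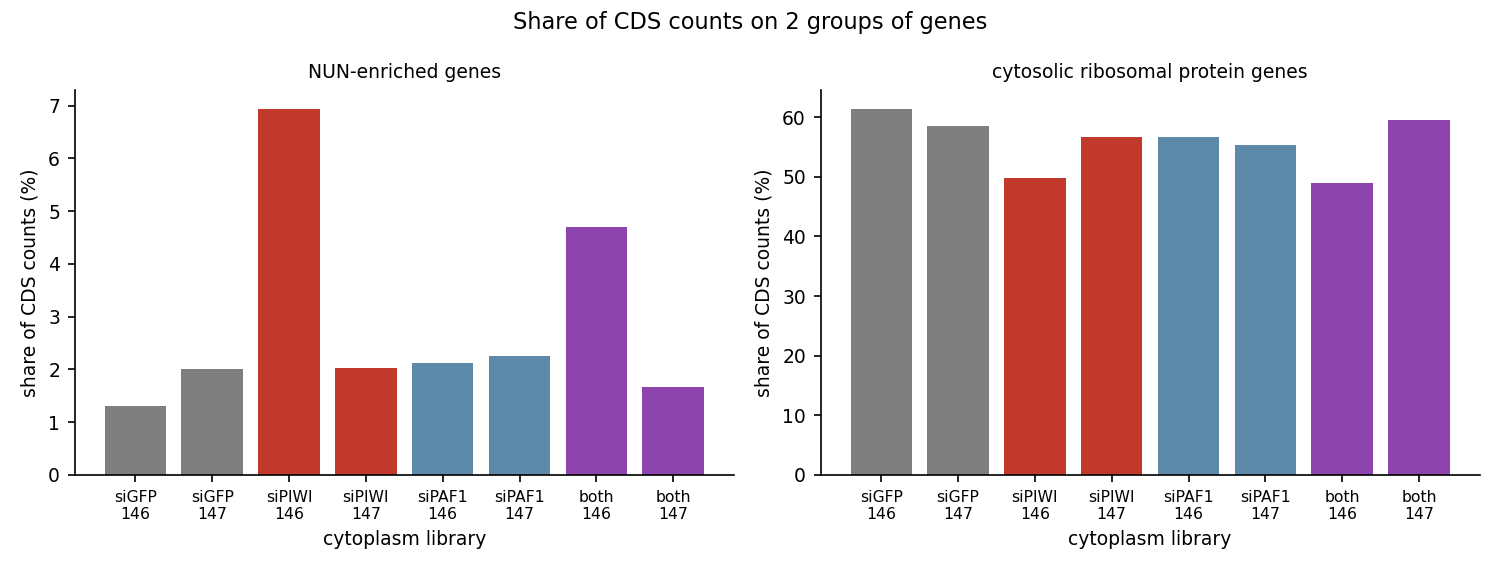
Share of CDS counts (%) on 1871 NUN-enriched genes (left) and on 93 cytosolic ribosomal protein genes (right), 1 bar per cytoplasm library, where "both" is the double knockdown. In siPIWI library OSS_146 the first share stood at 6.94% and the second at 49.8%, against 1.30% to 2.01% and 58.6% to 61.4% in the siGFP libraries.

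The targeted mRNA, piwi (chromosome 2L, 10982205 to 10987416), was lower in both siPIWI libraries. It stood at 288 and 308 CPM with siGFP, at 86.4 CPM in siPIWI library OSS_146 and at 42.5 CPM in siPIWI library OSS_147, so the groups did not overlap. The log2 difference was -2.18 ± 0.50 (SE), with an adjusted p = 0.303 over 5714 genes in edgeR. With siPIWI library OSS_146 left out piwi fell by 2.80 (adjusted p = 0.00914), and with library OSS_147 left out it fell by 1.79 (adjusted p = 0.0274). Without either siGFP library its adjusted p did not pass, at -2.23 and -2.13. In the double knockdown against siPAF1, a comparison that shares no library with this one, piwi stood at 102 and 36.2 CPM against 251 and 345 CPM, a difference of -2.07 ± 0.49. In NUN the siPIWI difference of piwi was -0.52 ± 0.44.

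The reads of piwi lay differently along the transcript in the 2 groups. Its 3′ untranslated window held 1047 and 968 counts with siGFP against 70 counts in siPIWI library OSS_146 and 57 in library OSS_147. On the CDS the same libraries held 211, 237, 133 and 29 counts. As CPM these 3′ counts came to 1425 and 1250 CPM against 45 and 83.4 CPM, so library OSS_147 was the higher siPIWI library there and the lower one on the CDS. The ratio of 3′ to CDS counts was 4.96 and 4.08 with siGFP, 0.526 in siPIWI library OSS_146 and 1.97 in library OSS_147. It was 2.85 and 2.93 with siPAF1 and 0.49 (library OSS_146) and 1.83 (library OSS_147) in the double knockdown. In NUN it was 0.0125 to 0.127 over all 8 libraries. The authors' 3′ windows of piwi ran from 956 to 1206 bases in the cytoplasm files, and from 503 to 3206 bases in the NUN files. Over 1375 genes that averaged at least 20 siGFP counts in both regions, the log2 of this ratio differed from siGFP by a median of -0.38 in library OSS_146 and -0.14 in library OSS_147. For piwi the differences were -3.09 and -1.21, and 5 and 57 of the 1375 genes lay lower. The whole locus window of piwi held 1175 and 1129 siGFP counts and 239 and 94 siPIWI counts. There it fell by 3.15 ± 0.38 on the log2 scale (adjusted p = 0.00796), the 1 call of that measure.

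**Figure D2:**
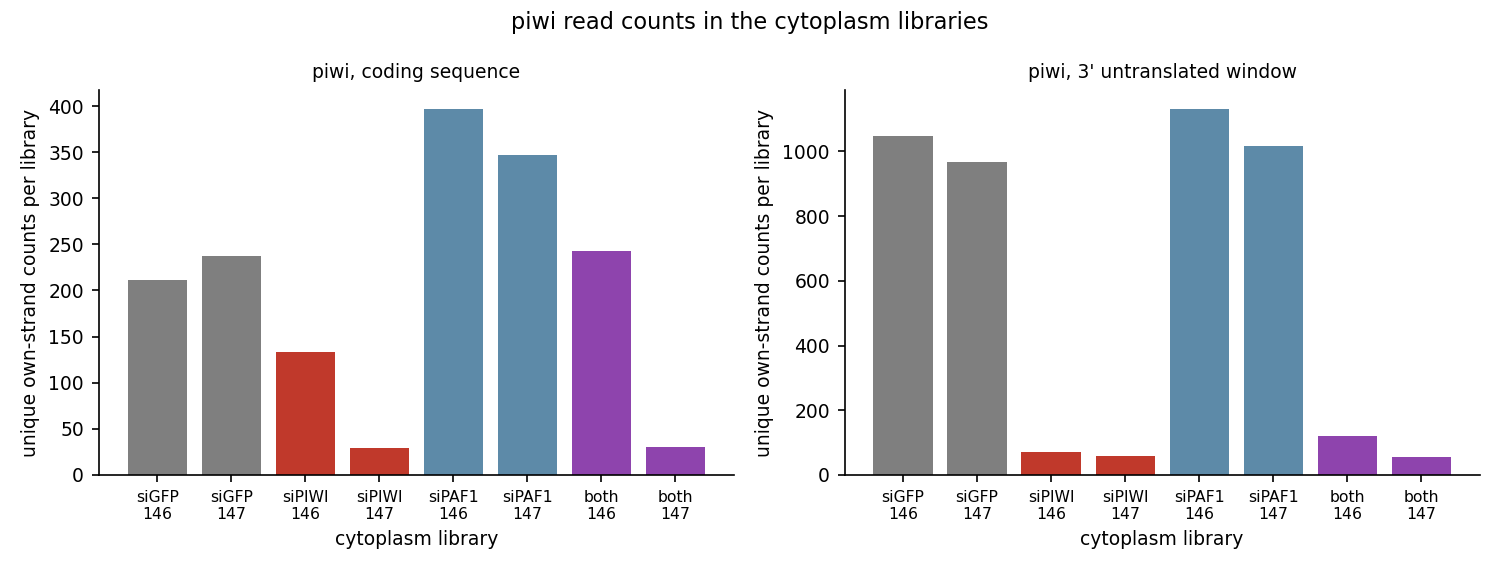
Unique own-strand counts of piwi in the 8 cytoplasm libraries, on the coding sequence (left) and on the 3′ untranslated window (right), 1 bar per library, not scaled for depth, where "both" is the double knockdown. The 3′ window held 968 to 1047 counts in the siGFP libraries and 57 to 70 in the siPIWI libraries.

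The gene of Paf1, named atms in the files (3R, 601323 to 603213), codes for part of a complex that moves along with RNA polymerase II. It is not a target of siPIWI. Its mRNA stood at 167 and 171 CPM with siGFP and at 105 and 93.9 CPM with siPIWI, which do not overlap. The difference was -0.77 ± 0.40, with an adjusted p = 0.355.

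Over all genes no difference passed the test. Of 5714 genes, 0 had an adjusted p under 0.05 in edgeR (0%), and the DESeq2 Wald test also called 0. An unadjusted p under 0.05 was found for 864 genes (15.1%), of which 440 were higher (7.7%) and 424 lower (7.42%) with siPIWI. DESeq2 gave 692 such genes. Of all genes 3303 were higher and 2411 lower with siPIWI, and their median difference was 0.18. A member's difference and the counts of a list are to be read against these values. Leaving the 20 most abundant genes out of the library sizes moved that median to 0.65 and the split of unadjusted p under 0.05 to 890 higher and 75 lower. Without siPIWI library OSS_146 there were 27 calls (0.473%), 17 of them higher and 10 lower. Without siPIWI library OSS_147 there were 448 calls (7.84%), 374 of them higher and 74 lower. Without either siGFP library there were 0.

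Which genes were called depended on the siPIWI library that was kept. Of all 5714 genes tested, 1203 were in the NUN-enriched set. With library OSS_146 alone (OSS_147 left out), 304 of the 374 higher genes were in the NUN-enriched set, and the median coding length was 3766 bases for the higher genes and 930 bases for the lower ones. With library OSS_147 alone (OSS_146 left out), 0 of the 17 higher genes were in that set, and the median coding lengths were 534 and 1629 bases. Only 4 genes were called with either library, each in the same direction: piwi, CG5130, CG5254 and endos.

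Coding length set the siPIWI libraries apart. In library OSS_146 the median of the difference from the siGFP mean, on log2(CPM + 2), went from -0.64 for the 589 genes with a coding length up to 500 bases through -0.18 for 1000 to 1500 bases to 1.17 for the 970 genes over 3000 bases. In library OSS_147 the same medians were 0.34, 0.03 and -0.11. Between the siGFP libraries they were -0.21, -0.06 and 0.10. Across the 5714 genes the difference in library OSS_146 correlated with log coding length with Pearson's r of 0.55 and Spearman's rho of 0.56, and that in library OSS_147 with -0.17 and -0.15. Genes of a library share its depth and its preparation and are not independent. Of the genes over 3000 bases 73% were in the NUN-enriched set, against 0.509% of those up to 500 bases. Outside that set the medians of library OSS_146 still ran from -0.65 to 0.44. The NUN-enriched genes that were tested (1203) had a median difference of 1.28 in library OSS_146 and of -0.02 in library OSS_147, and the other 4511 genes -0.21 and 0.05.

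**Figure D3:**
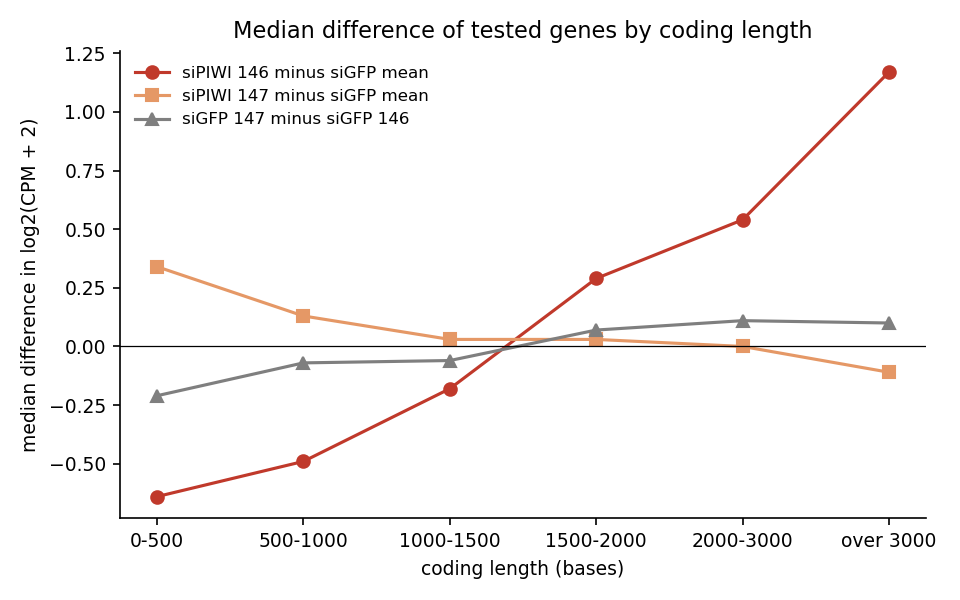
Median difference in log2(CPM + 2) of the 5714 tested genes, by coding length in bases, for each siPIWI library against the siGFP mean and between the siGFP libraries. The line of siPIWI library OSS_146 runs from -0.64 to 1.17, and that of library OSS_147 from 0.34 to -0.11.

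Among the 3276 genes that averaged at least 20 counts, both siPIWI libraries lay above both siGFP libraries for 476 (14.5%) and below them for 944 (28.8%). Over all 5714 tested genes, without that count minimum, the split was even, at 1219 above and 1161 below. The 10 genes with the widest gap in each direction are described next. None of the genes named here or below passed in the fit of all cytoplasm libraries, where their adjusted p ranged from 0.303 to 0.966.

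On the higher side the widest gap was that of CG5130 (chromosome 3L, 20477384 to 20486585). It stood at 9.57 and 7.79 CPM with siGFP and at 66.3 and 44.0 CPM with siPIWI, a difference of 2.67 ± 0.56. It was called with library OSS_147 alone (2.33, adjusted p = 0.0312) and with library OSS_146 alone (2.92, adjusted p = 0.00026). In the double knockdown it was at 81.0 and 38.6 CPM against 17.7 and 31.8 CPM with siPAF1, a difference of 1.33 ± 0.47.

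TH1 (chromosome X, 16282853 to 16285443), a subunit of the pausing factor NELF, was at 6.83 and 10.4 CPM against 28.6 and 35.2 CPM (1.86 ± 0.64). Taf1 (chromosome 3R, 2472611 to 2481770), the largest subunit of the general factor TFIID and a NUN-enriched gene, was at 12.3 and 11.7 CPM against 46.1 and 29.3 CPM (1.67 ± 0.52). CtBP (chromosome 3R, 8837388 to 8851904), a transcriptional corepressor and also NUN-enriched, was at 6.83 and 5.20 CPM against 42.2 and 20.5 CPM (2.41 ± 0.67). For Taf1 and CtBP library OSS_146 was the higher siPIWI library. The coactivator gene mbf1 (chromosome 3L, 16567536 to 16569508) had its higher value in library OSS_147, at 12.3 and 16.9 CPM against 40.3 and 66.0 CPM (1.83 ± 0.53). With library OSS_147 alone mbf1 rose by 2.17 (adjusted p = 0.0237). In the siPAF1 libraries mbf1 was at 31.6 and 56.7 CPM, and in the double knockdown at 49.7 and 24.1 CPM.

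The kinesin gene Kif3C (chromosome 4, 1168092 to 1189865) was at 6.83 and 11.7 CPM with siGFP and at 29.9 and 71.9 CPM with siPIWI (2.40 ± 0.64). Its higher value was in library OSS_147, which held the smaller NUN-enriched share. With library OSS_147 alone Kif3C rose by 2.94 (adjusted p = 0.00108), and with library OSS_146 alone it stood at 1.67 (adjusted p = 0.0604). Its double knockdown values were 17.1 and 56.6 CPM against 10.7 and 10.9 CPM with siPAF1 (1.68 ± 0.59), and its NUN difference was 1.0 ± 0.40. Kif3C was thus above its controls in all 4 cytoplasm libraries that received siRNA against piwi. The troponin C gene TpnC4 (chromosome 2R, 1390942 to 1395371), which lies outside the naming rule and was chosen after its values were seen, had 1 and 0 counts in the siGFP libraries and 8 and 16 in the siPIWI libraries. Its differences were 4.10 ± 1.32 in this comparison, 3.51 ± 1.14 in the double knockdown against siPAF1 and 1.80 ± 0.60 in NUN.

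The remaining genes on the higher side were CG11883, CG3800, CG1416 and Gbeta13F. The NUN-enriched CG11883 was at 10.9 and 11.7 CPM against 55.9 and 32.3 CPM (1.98 ± 0.51). CG3800, also NUN-enriched, was at 10.9 and 11.7 CPM against 53.3 and 32.3 CPM (1.94 ± 0.55). Gbeta13F, a G protein beta subunit, was at 9.57 and 15.6 CPM against 66.3 and 35.2 CPM (2.03 ± 0.54). In these 3 genes library OSS_146 was the higher siPIWI library. CG1416 had its higher value in library OSS_147, at 26.0 and 23.4 CPM against 60.4 and 112 CPM (1.78 ± 0.48), and rose by 2.17 with that library alone (adjusted p = 0.0113). It stood at 80.2 and 70.6 CPM with siPAF1.

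On the lower side piwi had the widest gap. CG14798 (chromosome X, 1586869 to 1587876) came next and was at 73.8 and 63.7 CPM with siGFP and at 15.6 and 22.0 CPM with siPIWI (-1.90 ± 0.61). With siPAF1 it was at 6.95 and 11.9 CPM, below both siPIWI libraries. Pugilist (pug, chromosome 3R, 6522240 to 6529038), a folate cycle enzyme, was at 198 and 158 CPM against 57.2 and 52.8 CPM (-1.69 ± 0.42). The siPAF1 values of pug, 56.2 and 54.7 CPM, lay in the range of siPIWI. Both comparisons use the same siGFP libraries.

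Inos (chromosome 2R, 3342427 to 3346373), the enzyme that makes inositol phosphate from glucose phosphate, was at 339 and 322 CPM with siGFP and at 120 and 85.1 CPM with siPIWI (-1.68 ± 0.44). Inos was at 407 and 242 CPM in the siPAF1 libraries, and with both siRNAs at 210 and 233 CPM. Its siPAF1 values surrounded those of siGFP, unlike those of pug. The aldehyde dehydrogenase gene Aldh (chromosome 2L, 9387389 to 9391567) was at 776 and 603 CPM against 191 and 268 CPM (-1.59 ± 0.45). With both siRNAs Aldh was at 288 and 447 CPM, against 534 and 533 CPM with siPAF1 (-0.54 ± 0.44).

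The nucleotide kinase gene Dak1 was at 200 CPM in both siGFP libraries and at 81.8 and 71.9 CPM with siPIWI (-1.37 ± 0.44). CG33138, the glycogen branching enzyme gene, was at 268 and 229 CPM against 98.1 and 101 CPM (-1.32 ± 0.41). The amino acid transporter gene CG5535 was at 107 and 149 CPM against 39.6 and 42.5 CPM (-1.64 ± 0.42). In these 3 genes the siPIWI libraries lay close to each other. Dbi, which encodes an acyl-CoA binding protein, was at 35.5 and 33.8 CPM against 13.0 and 11.7 CPM (-1.47 ± 0.53). CG11275 was at 42.4 and 55.9 CPM against 12.3 and 16.1 CPM (-1.81 ± 0.54). With library OSS_147 alone, piwi was the only 1 of these 10 genes that passed. With library OSS_146 alone piwi, CG14798, pug, CG11275, CG5535 and Aldh passed, at -1.64 to -2.13 with adjusted p of 0.00702 to 0.032.

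In the double knockdown against siPAF1 0 of 5714 genes passed in edgeR (0%) and 0 in DESeq2, and 51 genes had an unadjusted p under 0.05. Of the 10 genes on the higher side 8 had the same sign there, and of the 10 on the lower side 7, against 62.9% of all genes. The 7 include piwi, which the siRNA targets in both comparisons. The 8 include the NUN-enriched CtBP, CG11883, CG3800 and Taf1, and double knockdown library OSS_146 held a NUN-enriched share of 4.70%. The part of that share in these signs was not tested. The medians of these groups were 0.48 and -0.54 there, against 1.96 and -1.66 here.

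**Figure D4:**
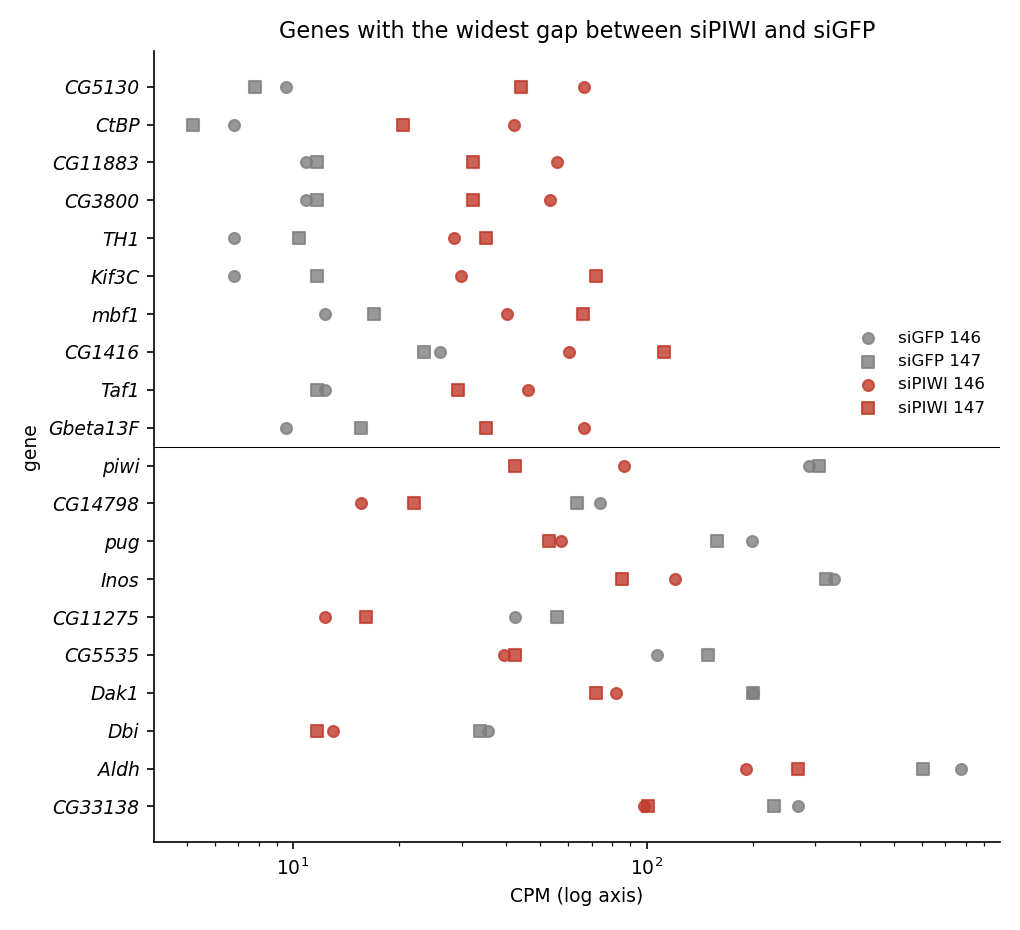
CPM on a log axis of the 10 genes with the widest gap above siGFP (upper rows) and the 10 with the widest gap below it (lower rows), 1 point per library, with circles for library OSS_146 and squares for library OSS_147. The genes were chosen for the gap between grey (siGFP) and red (siPIWI) points, and which siPIWI library is farther out varies from gene to gene.

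The 5 lowest unadjusted p-values on each side brought in 4 more genes. Endosulfine (endos), a regulator of the mitotic phosphatase PP2A, was at 5.47 and 6.50 CPM with siGFP and at 25.3 and 35.2 CPM with siPIWI (2.29 ± 0.61). It rose by 2.54 with library OSS_147 alone and by 2.06 with library OSS_146 alone (adjusted p = 0.0329 and 0.0296), but over its whole locus it stood at -0.20 (adjusted p = 0.806). The carbonic anhydrase gene CAH1 was at 15.0 and 39.0 CPM against 2.60 and 2.93 CPM (-3.27 ± 0.72), from 11, 30, 4 and 2 counts. CG5254 was at 562 and 194 CPM against 120 and 54.3 CPM (-2.09 ± 0.53), with a wide spread within each group. The Smad gene Smox, a NUN-enriched gene, was at 2.73 and 2.60 CPM against 29.2 and 13.2 CPM (3.0 ± 0.79).

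The genes that differed most between the siPIWI libraries fell into long and short ones. Highest in library OSS_146 relative to OSS_147 were Wnk, crol, vir, fd68A and Tango1, all NUN-enriched. The kinase gene Wnk had 8 and 10 counts with siGFP, 62 in siPIWI library OSS_146 and 0 in library OSS_147. The zinc finger gene crol had 7 and 7 counts, 88 and 2. Tango1, an export factor of the endoplasmic reticulum, had 39 and 75 counts, 165 and 10. With library OSS_147 alone Tango1 fell by 2.36 (adjusted p = 0.0329). Lowest in library OSS_146 relative to OSS_147 were CG11750, CG40045, Nca, Sirt6 and CG43295, none of them NUN-enriched and all with a coding length under 1000 bases. The calcium sensor gene Nca was at 71.1 and 54.6 CPM with siGFP, 22.1 CPM in siPIWI library OSS_146 and 122 CPM in library OSS_147. Sirt6, a deacetylase gene, was at 43.7 and 32.5 CPM, 11.0 CPM and 63.1 CPM. These 10 genes were chosen for the difference between the siPIWI libraries.

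Of the genes of the piRNA pathway 31 of 37 were tested, with 22 higher and 9 lower and a median of 0.48. An unadjusted p under 0.05 was found for 2 on the higher side, squ and lwr, and for piwi on the lower side, together 9.68% of the list against 15.1% of all genes. The median difference from siGFP was 0.30 in library OSS_146 and 0.32 in library OSS_147, a group in which both libraries gave like values. Squash (squ), a piRNA factor known from germ cells, was at 5.47 and 6.50 CPM with siGFP, 7.79 CPM in siPIWI library OSS_146 and 33.7 CPM in library OSS_147 (1.66 ± 0.74). The SUMO conjugating enzyme gene lwr was at 15.0 and 15.6 CPM against 37.0 and 30.8 CPM (1.15 ± 0.52). In the double knockdown against siPAF1 squ stood at 0.05 and lwr at 0.22, and over its whole locus lwr stood at -0.38. The piRNA list took 0.138% and 0.2% of counts with siGFP and 0.284% and 0.276% with siPIWI.

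Of the siRNA and miRNA pathway 13 of 14 genes were tested, 11 of them higher. At an unadjusted p under 0.05 were 2 of them, 15.4% against 15.1% of all genes. The median was 1.13 in library OSS_146 and 0.11 in library OSS_147. Argonaute 2 (AGO2), the effector of siRNA silencing, was at 83.4 and 121 CPM with siGFP and at 253 and 172 CPM with siPIWI (1.06 ± 0.44), but at -0.31 over its whole locus. The gene of the double-stranded RNA binding protein blanks was at 5.47 and 1.30 CPM against 13.0 and 32.3 CPM (2.65 ± 0.76), and rose by 3.24 with library OSS_147 alone (adjusted p = 0.0128). Of the Paf1 complex 4 of 5 genes were tested, 2 higher and 2 lower, with medians of 0.44 and -0.64 in the siPIWI libraries. Its member Rtf1 was at 5.47 and 5.20 CPM against 29.2 and 10.3 CPM (1.95 ± 0.77) and stood at -0.36 over its whole locus.

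The cytosolic ribosomal protein genes were mostly lower. Of 87 tested, 68 were lower and 19 higher, with 0 called. At an unadjusted p under 0.05 were 12 lower and 0 higher genes, 13.8% of the list against 15.1% of all genes. The median was -0.61, or -0.79 relative to all genes. With the 20 most abundant genes out of the library sizes it was -0.17, or -0.81 relative to all genes. In library OSS_146 the median difference was -0.99 and in library OSS_147 it was -0.24. With the NUN-enriched share of each library as a covariate the median was -0.06. The ovary-enriched paralogue RpS5b, whose counts are of reads that aligned at 1 place, was at 3733 and 2120 CPM with siGFP and at 944 and 1064 CPM with siPIWI (-1.54 ± 0.49). RpS2 was at 37900 and 22065 CPM against 14525 and 9923 CPM (-1.29 ± 0.53). RpL38 overlapped between the groups, at 62512 and 44019 CPM against 25289 and 45976 CPM (-0.58 ± 0.53). The double knockdown against siPAF1 gave a median of -0.17 for the list and NUN gave 0.09.

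Of 74 mitochondrial ribosomal protein genes tested 58 were lower. At an unadjusted p under 0.05 were 15 lower and 0 higher genes, 20.3% of the list against 15.1% of all genes. Their median of -0.43 became 0.02 with the 20 most abundant genes out of the library sizes, but relative to all genes it was -0.61 and -0.63. Their medians were -0.74 in library OSS_146 and -0.13 in library OSS_147. The gene mRpL21 was at 525 and 430 CPM against 175 and 230 CPM (-1.24 ± 0.44). Of 70 genes of the respiratory chain and ATP synthase 55 were lower. At an unadjusted p under 0.05 were 13 lower genes and 1 higher gene, 20% of the list against 15.1% of all genes. Their median of -0.45 became 0.06 under the same scaling, and relative to all genes it was -0.64 and -0.59. Per library it was -0.64 in OSS_146 and -0.27 in OSS_147. The proteasome list (34 tested) had a median of -0.17, which became 0.28 under that scaling while its value relative to all genes was -0.35 and -0.37. Its medians were -0.38 in library OSS_146 and -0.23 in OSS_147. The translation factors (43 tested) had a median of -0.03, which became 0.42, with -0.21 and -0.23 relative to all genes and -0.44 and 0.04 in the siPIWI libraries. Among the proteasome genes 3 lower and 1 higher were at an unadjusted p under 0.05 (11.8% against 15.1% of all genes). Prosbeta5 was at 8590 and 3728 CPM against 3027 and 1976 CPM (-1.30 ± 0.52). Rpn6, the higher one, was at 35.5 and 39.0 CPM against 73.4 and 91.0 CPM (1.13 ± 0.44). Among the translation factors 4 lower and 1 higher were at an unadjusted p under 0.05 (11.6% against 15.1% of all genes). The higher one, the NUN-enriched translation initiation gene eIF4G2, was at 1.37 and 5.20 CPM against 30.5 and 11.7 CPM (2.70 ± 0.78). The lower ones included Int6, at 3252 and 3358 CPM against 1364 and 1749 CPM (-1.09 ± 0.47). The median coding length was 442 bases for the respiratory list and 582 and 471 for the mitochondrial and cytosolic ribosomal lists, against 1393 for all genes. All genes up to 500 bases had medians of -0.64 in library OSS_146 and 0.34 in OSS_147. Those of 500 to 1000 bases had -0.49 and 0.13. The part of coding length in these lists was not tested.

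Of 12 glycolysis genes, all tested, 8 were lower and 4 higher. At an unadjusted p under 0.05 were 3 of them, all lower (25% against 15.1% of all genes). Their median of -0.27 became 0.28 with the 20 most abundant genes out of the library sizes, a scaling that moved the median of all genes from 0.18 to 0.65, and relative to all genes it was -0.45 and -0.37. The median difference was 0.18 in library OSS_146 and -0.82 in library OSS_147. Triose phosphate isomerase (Tpi) was at 261 and 87.0 CPM with siGFP and at 86.4 and 49.9 CPM with siPIWI (-1.33 ± 0.48). Phosphoglycerate kinase (Pgk) was at 1485 and 534 CPM against 545 and 224 CPM (-1.39 ± 0.54), so the higher siPIWI library overlapped with the lower siGFP library. Enolase (Eno) was at 835 and 379 CPM against 335 and 191 CPM (-1.20 ± 0.47). In these 3 genes library OSS_146 was the higher library in both groups.

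Several groups with long coding sequences had medians above that of all genes in library OSS_146 and near or below it in library OSS_147. Of 22 follicle cell identity genes tested 19 were higher, 3 of them at an unadjusted p under 0.05 (13.6% against 15.1% of all genes), and 17 were NUN-enriched. Their median difference was 1.19 in library OSS_146 and -0.31 in library OSS_147. The transcription factor gene bab2 was at 1.37 and 1.30 CPM against 20.1 and 7.34 CPM (3.35 ± 1.05). The hedgehog receptor gene ptc was at 23.2 and 27.3 CPM with siGFP, 101 CPM in siPIWI library OSS_146 and 23.5 CPM in library OSS_147 (1.34 ± 0.54), and stood at -0.11 with library OSS_147 alone. The 3 genic piRNA sources were all NUN-enriched, with medians of 1.43 and -0.89. Traffic jam (tj), whose 3′ end is a known source of piRNAs, was at 208 and 129 CPM with siGFP, 255 CPM in siPIWI library OSS_146 and 66.0 CPM in library OSS_147 (-0.04 ± 0.51).

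The same split was seen in the mRNA decay list, with medians of 1.23 in library OSS_146 and -0.12 in library OSS_147. Of its 27 tested genes 5 were higher and 2 lower at an unadjusted p under 0.05 (25.9% against 15.1% of all genes). Not1, the scaffold of the deadenylase complex, was at 36.9 and 36.4 CPM with siGFP, 179 CPM in siPIWI library OSS_146 and 32.3 CPM in library OSS_147 (1.56 ± 0.60). Upf1, the helicase of nonsense-mediated decay, was at 6.83 and 7.79 CPM, 44.8 CPM and 10.3 CPM (1.98 ± 0.71). With library OSS_146 alone Not1 rose by 2.28 and Upf1 by 2.60 (adjusted p = 0.000591 and 0.00307). The export and nuclear pore genes (23 tested) had medians of 0.85 and 0.06. Their member thoc7 was at 5.47 and 3.90 CPM against 16.9 and 23.5 CPM (2.06 ± 0.71), highest in library OSS_147.

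The cytoskeleton and motor genes (23 tested, 19 higher) had medians of 0.60 in library OSS_146 and 0.15 in library OSS_147. An unadjusted p under 0.05 was found for 5 members, all higher (21.7% against 15.1% of all genes). The dynein heavy chain gene Dhc64C, with a coding length of 13920 bases, was at 54.7 and 57.2 CPM with siGFP, 273 CPM in siPIWI library OSS_146 and 47.0 CPM in library OSS_147 (1.54 ± 0.59). The dynein light chain gene ctp, with 270 bases, was at 9.57 and 16.9 CPM, 35.7 CPM and 60.2 CPM (1.82 ± 0.52), and rose by 2.17 with library OSS_147 alone (adjusted p = 0.0237). Over its whole locus ctp stood at -0.07. Between these subunits of the same motor the order of the siPIWI libraries was opposite.

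Of 22 immune and antiviral genes tested 14 were higher, with medians of 0.40 and 0.28. At an unadjusted p under 0.05 were 4 of them (18.2% against 15.1% of all genes). The cytokine receptor gene dome was at 9.57 and 26.0 CPM against 60.4 and 26.4 CPM (1.32 ± 0.54). The heat shock and folding genes (19 tested) had medians of 0.41 and 0.24, with Hsp60 at 7774 and 3747 CPM against 2707 and 2023 CPM (-1.28 ± 0.50). The DNA damage and stress genes (30 tested) had medians of 0.33 and 0.15. At an unadjusted p under 0.05 were 2 higher and 2 lower genes, 13.3% of the list against 15.1% of all genes. The lower ones were Sod, at 1511 and 720 CPM against 491 and 430 CPM (-1.28 ± 0.47), and GstD1 (-1.16 ± 0.49). The stress factor gene Xrp1 was at 31.4 and 35.1 CPM with siGFP, 148 CPM in siPIWI library OSS_146 and 29.3 CPM in library OSS_147 (1.45 ± 0.59), and stood at -0.18 with library OSS_147 alone.

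Cell cycle and replication genes (51 tested) had medians of 0.38 and 0.02. Of these genes 32 were higher and 19 lower. At an unadjusted p under 0.05 were 1 higher and 3 lower genes, 7.84% of the list against 15.1% of all genes. The replication genes Orc2 and Mcm3 were lower in both siPIWI libraries, and Top2 was higher in both. Orc2 was at 202 and 188 CPM against 92.2 and 79.2 CPM (-1.18 ± 0.41), and Mcm3 at 536 and 624 CPM against 282 and 288 CPM (-1.03 ± 0.43). Top2 was at 124 and 117 CPM with siGFP, 351 CPM in siPIWI library OSS_146 and 150 CPM in library OSS_147 (1.06 ± 0.46). The RNA polymerase II genes (27 tested) had medians of 0.52 and -0.14. The small subunit gene RpII15 was at 9.57 and 2.60 CPM against 15.6 and 36.7 CPM (2.04 ± 0.68) and rose by 2.59 with library OSS_147 alone (adjusted p = 0.0329). The histone list (4 tested) had medians of -0.36 and 0.55, the opposite order.

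Of the ecdysone response genes 13 of 30 were tested, with medians of 0.59 and -0.43. The steroid hormone is made from cholesterol in part by the cytochrome P450 shadow (sad), which was at 49.2 and 28.6 CPM with siGFP and at 11.0 and 19.1 CPM with siPIWI (-1.42 ± 0.52). In NUN the siPIWI difference of sad was -1.61, and in the double knockdown against siPAF1 -0.27. The nuclear receptor gene Eip75B was at 8.20 and 7.79 CPM, 39.0 CPM in library OSS_146 and 10.3 CPM in library OSS_147 (1.70 ± 0.66). The gene tai, which encodes a coactivator of the ecdysone receptor, was at 2.73 and 3.90 CPM, 25.3 CPM in library OSS_146 and 5.87 CPM in library OSS_147 (2.30 ± 0.85). It stood at -0.06 over its whole locus.

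**Figure D5:**
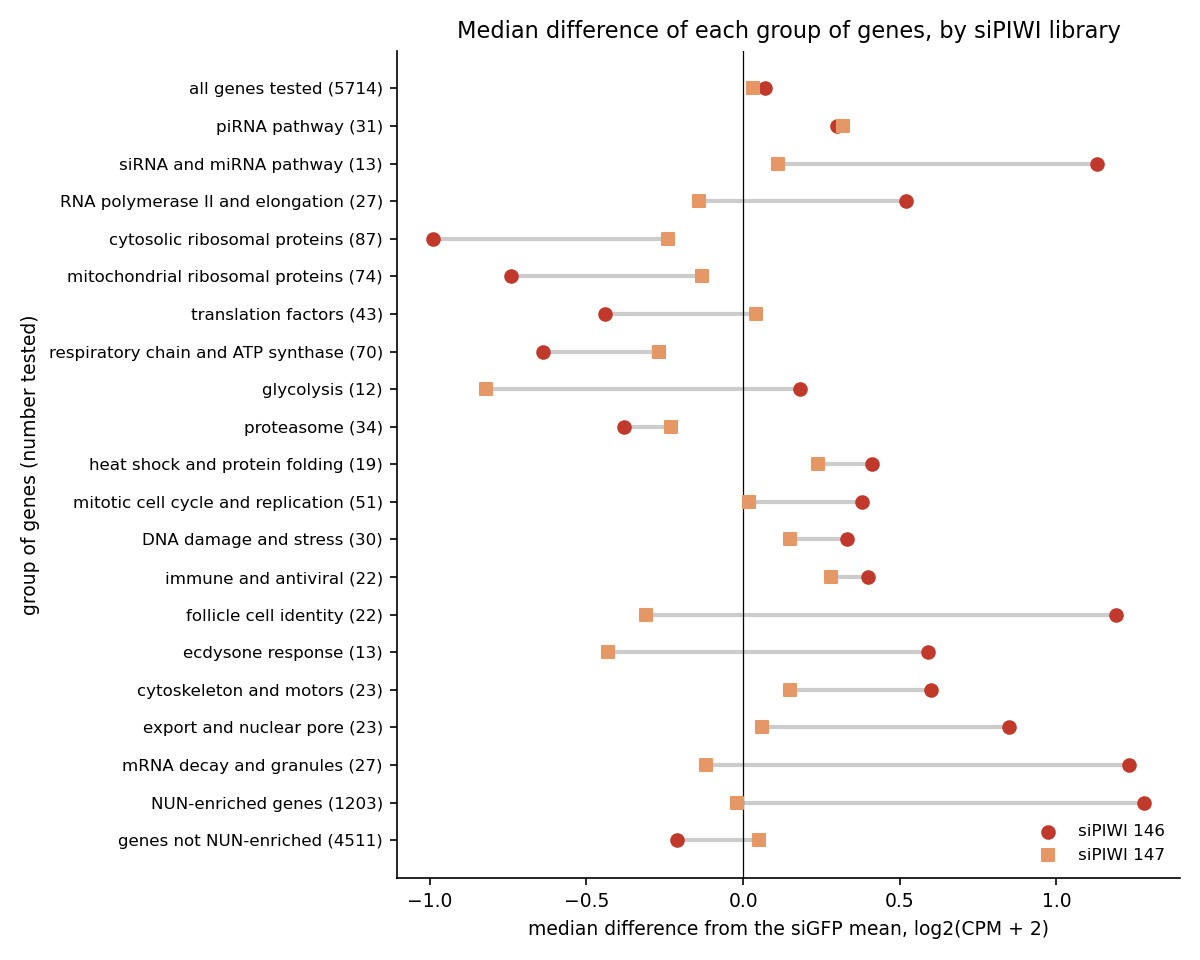
Median difference from the siGFP mean in log2(CPM + 2) for each group of genes with at least 10 tested members, 1 point per siPIWI library. The ribosomal protein genes stand at -0.99 and -0.24 and the NUN-enriched genes at 1.28 and -0.02 in libraries OSS_146 and OSS_147, on TMM scaling, where all genes stand at 0.07 and 0.03.

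The 10 genes whose NUN level rose with siPIWI, a list chosen from the NUN libraries of this series, were too low in the cytoplasm to enter the test. Pde6, a cyclic GMP phosphodiesterase gene, had 1 and 2 counts with siGFP, 112 in siPIWI library OSS_146 and 6 in library OSS_147. The cytochrome P450 gene Cyp28a5 had 1 and 0 counts, 24 and 6. The axon guidance gene gogo had 1 and 0 counts, 22 and 2. In each of them both siPIWI libraries were above the siGFP libraries, with most of the counts in library OSS_146. CG12691 had 0 and 0 counts, 10 and 1, CG30095 had 0 and 0, 5 and 2, and CG13870 had 0 and 0, 3 and 1. For dp (dumpy), a giant matrix protein gene, library OSS_146 held 15 counts and the other 3 libraries 0. The remaining 3 genes, Unc-89, nimC2 and CG15572, had 6, 4 and 1 counts in library OSS_146 and 0 in the others. In the double knockdown Cyp28a5 had 15 and 5 counts against 1 and 0 with siPAF1, while Pde6 had 2 and 2 against 6 and 0. There gogo had 8 and 2 counts against 2 and 2, and CG12691 had 3 and 0 against 0 and 0. CG30095 and CG13870 had 0 and 0 against 0 and 0.

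Whether the siPIWI difference itself differed between cytoplasm and NUN was tested over all 16 libraries. Of 7982 genes 0 passed in edgeR (0%) and 0 in DESeq2, and 733 (9.18%) had an unadjusted p under 0.05, with a lowest adjusted p of 0.528. For piwi the difference between the fractions was -1.71 ± 0.63 (adjusted p = 0.528), the cytoplasm value being the lower one.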

How the data were processed

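The deposited files hold, per the file headers, counts of aligned reads for 24995 transcript models in each library, split by region and strand. These are raw counts by the authors, made after alignment with Bowtie per the submitters' processing notes, with no version given there. The authors also deposited RPM values, which were not used here. The genome build is not given in the sources used here.

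The unique own-strand CDS count was used, with the model of the longest CDS for each of 14229 genes. Own-strand reads made up 95.4% (plus-strand genes) and 96.0% (minus-strand genes) of CDS counts. Reads are not marked by molecular identifiers, so counts are not independent molecules. No intron share is given for the cytoplasm, where reads across region borders count in several regions.

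Tests used edgeR 4.0.16 in R 4.3.3 (filterByExpr, TMM, the quasi-likelihood F test with its robust option) on all 8 cytoplasm libraries, with Benjamini-Hochberg adjustment over 5714 genes and a threshold of 0.05. The biological coefficient of variation was 32%. A lone library left after leaving out its partner is assumed to vary like the other groups. On simulated data for this comparison the test called 5 of 100 genes changed by a log2 of 1 and 54 of 100 changed by 2, with 2 false calls among 5514. The changed genes were drawn from those averaging at least 20 counts, so recovery at lower counts is not covered. The simulated libraries lacked the coding-length pattern of siPIWI library OSS_146.

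Genes were named by rule: the siRNA targets, the 10 widest gaps between groups in each direction on log2(CPM + 2) among genes averaging at least 20 counts, the 5 lowest p in each direction, up to 4 members per list with p under 0.05 or else the most abundant one, the 5 genes at each end of the difference between siPIWI libraries, and the 5 most abundant genes. The members and lists were chosen with earlier results of these data known, and a few misassigned list names were removed afterwards. Alternatives were DESeq2 1.42.0, other scalings, filters, strands, regions, alignments and libraries, a replicate block, and the NUN-enriched genes left out or as a covariate.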

Additional observations from a re-analysis of the deposited data

Results flagged for a closer look

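Counts in data outside the test were higher with siPIWI for 6 of the 10 genes whose NUN level rose with siPIWI. How many other untested genes had such counts was not determined, so these 6 cannot be set against a background. Their summed cytoplasm counts in the siPIWI libraries were 118 for Pde6, 30 for Cyp28a5, 24 for gogo, 11 for CG12691, 7 for CG30095 and 4 for CG13870, against 3, 1, 1, 0, 0 and 0 in the siGFP libraries, and both siPIWI libraries of each gene held a count. Library OSS_146 held 112 of the 118 counts of Pde6. The share of NUN-enriched genes was also highest in that library, and its part in these counts was not tested.

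The opposite strand is not used in the comparison. Its share of CDS counts was 0.761% in siPIWI library OSS_146 and 0.629% in library OSS_147, against 0.414% and 0.468% with siGFP. The mucin gene Muc14A alone had 2655 opposite-strand counts in siPIWI library OSS_146 and 304 in library OSS_147, against 194 and 205 with siGFP and 1043 and 240 with siPAF1. Its own-strand counts were 9097 and 1782 with siPIWI against 1200 and 1260 with siGFP. Without Muc14A the opposite-strand shares were 0.538% and 0.585% against 0.397% and 0.445%.

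For 6 of the named genes both siPIWI libraries lay on one side of siGFP in the cytoplasm and on the other side in NUN. The difference between the fractions was 3.07 for Smox, -1.56 for CG3683, -1.47 for Prosbeta5, -1.42 for Prosalpha7, -1.99 for Cha and -1.46 for CG6404 on the log2 scale. In the test of that difference each had an adjusted p = 0.528, so none was called. In NUN itself the siPIWI difference was -0.04 ± 0.34 (SE) for Smox, 0.41 ± 0.46 for CG3683 and 0.11 ± 0.48 for Prosbeta5. It was 0.25 ± 0.41 for Prosalpha7, 1.03 ± 0.37 for Cha and 0.24 ± 0.39 for CG6404. Only that of Cha exceeded its SE, and exceeding an SE is not a test. A NUN change in the opposite direction is thus not taken as resolved for any of the 6 genes.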

How the results depend on the processing

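The count of 0 calls stayed 0 with DESeq2, other scalings, a strict filter, both strands, all alignments or the compared groups alone. It was 5 with no count filter (piwi, CG5130, CG5254, CAH1, Pde6), 7 with the replicate block (the first 4, Kif3C, amd, CG14798), 1 over the whole locus (piwi), 1 without the NUN-enriched genes (CG5130) and 5 with their share as a covariate (piwi, Kif3C, TpnC4, amd, CG8441). Leaving out 1 library gave 0 to 448, with 27 without siPIWI library OSS_146. For members of the lists it was 1 with no filter, 1 with the block, 1 over the locus, 1 with the covariate, and 0 to 38 with a library left out. These member counts add up lists that share some genes, and no matching number of tested members is given. They were not set against the share of all genes, so they do not show that list members were called more often. The difference of piwi passed at -2.18 with no filter (adjusted p = 0.0101), -2.26 with the replicate block (0.00379), -3.15 over the locus (0.00796) and -3.14 with the covariate (0.000633), and ranged from -2.80 to -1.79 with a library left out. The block gave 1 call (piwi) in the double knockdown against siPAF1 and 0 in the difference between fractions. No label says that OSS_146 or OSS_147 marks a shared culture or day. The deviations of same-numbered libraries correlated at -0.00626 for siPIWI and siGFP, and over all pairs of groups from -0.165 to 0.569, the highest for siPIWI and the double knockdown. The NUN-enriched share of siPIWI library OSS_146 was 11.2% with a log2 threshold of 2 and 9.01% with the set taken from siGFP, whose libraries are compared.

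Among 114 named genes 88 kept their sign throughout; the cause of the reversals was not tested. Over the locus the reversed values were -0.20 for endos, -0.38 for lwr, -0.31 for AGO2, -0.36 for Rtf1, -0.23 for tub, -0.43 for tkv, 0.06 for tj, -0.06 for tai, -0.07 for ctp, -0.91 for tho2 and -0.49 for CG11750. With the covariate they were -0.14 for Xrp1, -0.05 for Ars2, -0.03 for ptc, -0.99 for crol, -0.20 for Dhc64C, -0.33 for Not1, -1.94 for Wnk, -0.26 for fd68A, -1.53 for vir, 0.83 for Sirt6, 0.58 for CG43295 and 0.01 for RpL38. With the 20 most abundant genes out they were 0.55 for tj, 0.27 for Tango1, 0.28 for Sirt6 and 0.17 for CG43295. For tj upper-quartile factors gave 0.07 and the strict filter 0.16, and the block gave -0.19 for Nca. With a library left out the ranges were -0.18 to 2.15 for Xrp1, -0.11 to 1.99 for ptc, -1.34 to 0.60 for tj, -1.63 to 2.60 for crol, -0.25 to 2.29 for Dhc64C, -0.18 to 2.28 for Not1, -0.53 to 2.66 for fd68A, -3.46 to 1.07 for vir, -2.36 to 0.51 for Tango1, -0.81 to 1.26 for CG11750, -1.07 to 1.06 for CG40045, -1.50 to 0.96 for Nca, -1.78 to 0.73 for Sirt6 and -1.60 to 0.51 for CG43295. For Wnk it was -6.79 to 1.74, the first from a library with 0 counts and so set by the prior count.

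Depth limits the comparison: at 663876 to 1153214 CDS counts per library, 5714 of 14229 genes were tested, with 2 libraries per group.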

Other observations

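With siPIWI library OSS_147 as the only siPIWI library, the 27 calls included further genes, which the naming rule does not cover and whose choice followed a look at their values. The dopa decarboxylase relative amd fell by 2.89 (adjusted p = 0.00765), with 102 and 62 counts in siGFP and 68 and 10 in siPIWI. The maltase gene Mal-A3 fell by 2.89 (adjusted p = 0.00967), and CG40002 and CG6404 stood at -2.82 each (adjusted p = 0.0145 and 0.0329). On the higher side CG34174 rose by 3.34 and rev7, a subunit of a DNA repair polymerase, by 2.95 (adjusted p = 0.0237 for each), with 2 and 5 counts of rev7 in siGFP and 9 and 25 in siPIWI. TpnC4 rose by 4.93 (adjusted p = 0.0237). In the double knockdown against siPAF1 amd stood at -0.94, Mal-A3 at -0.11, CG40002 at -0.07, CG34174 at -0.70 and rev7 at 0.34. There piwi, also among these calls and targeted by the siRNA in both comparisons, stood at -2.07. Signs in the fit of all cytoplasm libraries, with both siPIWI libraries, were compared with those of the double knockdown against siPAF1. They were the same for 64.7% of the higher and 70% of the lower calls, against 62.9% of all genes. The signs with library OSS_147 alone were not compared.

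Among markers of other tissues, the muscle gene Mlc2 stood at 1382 and 1321 CPM with siGFP and at 412 and 713 CPM with siPIWI (-1.27 ± 0.48). The choline acetyltransferase gene Cha was at 108 and 59.8 CPM against 47.4 and 41.1 CPM (-0.91 ± 0.43).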
